A study of Homo sapiens with 12 samples.

Results

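The transcriptome of NCI-H295R cells, an established human adrenocortical carcinoma line that makes steroid hormones, was compared after treatment with an EZH2 inhibitor and after vehicle. The EZH2i group received EPZ-6438 at 62 µM for 96 h, which the labels call an IC50 dose, and the baseline group received an equal volume of DMSO for 96 h. These are 6 of 12 libraries of polyadenylated RNA, 3 per group, and they were chosen by their treatment label alone. The CBPi group (PRI-724 at 26 µM for 96 h, also an IC50 dose) and the FSK group (DMSO for 48 h, then forskolin at 10 µM for 48 h) supply 3 libraries each and are used here as direct comparisons with EZH2i. All groups are plates of 1 cell line, named biological replicates in the labels, and no histone mark was measured, so loss of EZH2 activity and anything else the compound does at 62 µM cannot be told apart.

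EZH2 is the catalytic subunit of the Polycomb complex PRC2, which methylates histone H3 at lysine 27. The mark is laid down mostly at CpG-rich promoters of developmental genes, where it goes with a silent or barely transcribed state. EPZ-6438, also known as tazemetostat, competes with the methyl donor in the active site and leaves the EZH2 protein in place. In the adrenal cortex, the nuclear receptor NR5A1 drives the enzymes that turn cholesterol into steroids.

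Total counts were 29.5 to 31.5 megacounts per EZH2i library and 21 to 27 megacounts per baseline library. Replicate pairs within these groups differed by more than counting noise (chi-square over degrees of freedom, 2.56 to 6.68). All 10 adrenocortical markers were detected, and all 10 were lower with EZH2i, with a summed level of 1860 to 1890 CPM with EZH2i and 3910 to 4100 CPM at baseline (CPM, library-scaled counts after TMM). Defining markers of chromaffin cells (TH, PNMT, PHOX2A), glia (SOX10), leukocytes (PTPRC) and endothelium (PECAM1) stood at 0 to 2 raw counts in each of the 6 libraries. Other markers of these lists were present: the 2 chromaffin markers tested summed to 58.4 to 65.7 CPM with EZH2i and 50.4 to 53.4 CPM at baseline, with CHGB higher, and the 3 endothelial markers tested to 2.84 to 4.1 CPM with EZH2i and 0.737 to 1.14 CPM at baseline, with KDR higher by more than 1.5-fold. The other markers of these 2 lists did not pass. The 4 glial markers tested, of which 0 rose and 2 fell, summed to 3.67 to 3.91 CPM with EZH2i and 3.93 to 5.04 CPM at baseline, and the 3 leukocyte markers, of which 1 rose and 1 fell, to 1.42 to 1.88 CPM with EZH2i and 1.96 to 2.78 CPM at baseline. The part of such cells in the results was not tested. In bulk RNA, fewer cells that express a gene and less RNA of it per cell cannot be told apart.

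Of 60617 genes in the table, 20360 passed the filter on low counts and were tested. The 2 groups differed in 11778 of them (57.8%) by the quasi-likelihood test of edgeR, at a Benjamini-Hochberg adjusted p of 0.05. Levels rose with EZH2i in 6011 genes (29.5%) and fell in 5767 (28.3%). A test against a 1.5-fold change was passed by 2323 genes (11.4%), 1347 higher (6.62%) and 976 lower (4.79%). The 3 EZH2i libraries lay wholly outside the range of the 3 baseline libraries in 65.9% of genes tested, so separation alone marks nothing out here.

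Rises were most common among genes with low baseline levels, and falls among genes above 100 CPM at baseline. Among genes at 1 to 5 CPM at baseline, 7.84% rose and 5.44% fell by more than 1.5-fold. Falls did not climb steadily between, at 4.32% for 5 to 20 CPM and 5.33% for 20 to 100 CPM. Above 100 CPM at baseline, 2.79% rose and 7.54% fell. Past a 4-fold change, 336 genes were higher and 131 lower, and 255 of the 336 had a baseline mean under 1 CPM. Genes that low reached the test partly because another group raised them, so their share is a description only.

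**Figure D1:**
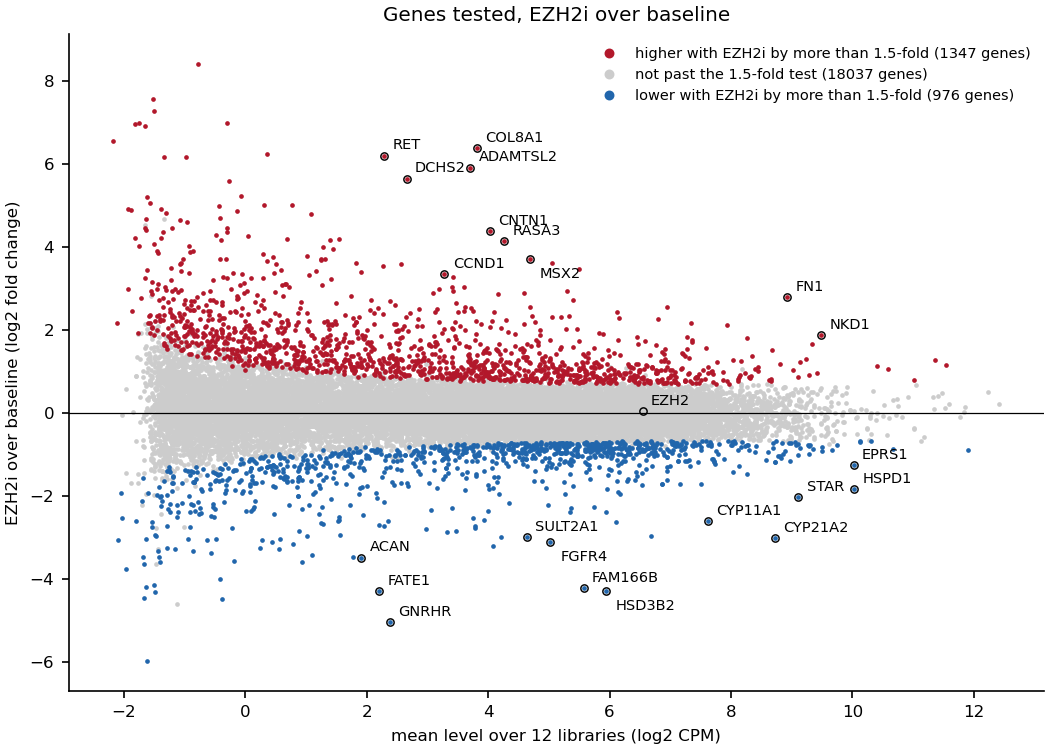
Each point is a gene, with its mean level over 12 libraries (log2 CPM) on the x axis and the log2 fold change of EZH2i over baseline on the y axis. Red marks the 1347 genes higher and blue the 976 lower by more than 1.5-fold. RET and COL8A1 lie above 6 and GNRHR lies below -5, while EZH2 lies close to 0.

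The largest rises included genes for secreted, surface and signalling proteins, most of them under 1 CPM at baseline. These genes were ranked by fold change, and their level had to reach a floor when averaged over all libraries, EZH2i included. A gene low at baseline could pass that floor through its EZH2i level. ANKRD33B, close to the floor, averaged 5.49 CPM with EZH2i and 0.407 CPM at baseline. The low baseline levels are thus partly built into the choice and are a description only. COL8A1 (chr3:99638475-99799226, plus strand, GENCODE 29 on GRCh38), a collagen VIII chain, stood at 47.5, 50.8 and 51.2 CPM with EZH2i, against 0.958, 0.552 and 0.282 CPM at baseline. RET (chr10:43077027-43130351, plus strand), the receptor tyrosine kinase for GDNF family ligands, stood at 16.1, 16.8 and 14.9 CPM with EZH2i, against 0.182, 0.184 and 0.282 CPM at baseline. The lowest EZH2i library was far above the highest baseline library for both genes. COL8A1 was 82.8-fold higher (a log2 change of 6.37 ± 0.16 SE, with an edgeR p of 4.72e-17 after Benjamini-Hochberg adjustment) and RET 73-fold higher (6.19 ± 0.19 SE). Raw counts of RET were 520, 508 and 449 with EZH2i, against 4, 5 and 6 at baseline, so the size of its fold rests on few baseline counts.

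Genes of this group spanned several protein classes. ADAMTSL2, a secreted matrix glycoprotein, stood at 38.7, 43 and 41.4 CPM with EZH2i, against 0.912, 0.626 and 0.517 CPM at baseline. DCHS2, a giant cadherin, stood at 22.2, 19.8 and 18.3 CPM with EZH2i, against 0.41, 0.258 and 0.565 CPM at baseline. CNTN1, a neural cell adhesion protein of the immunoglobulin family, stood at 53.6, 55.2 and 55.5 CPM with EZH2i, against 2.46, 2.76 and 2.73 CPM at baseline. In each of these the EZH2i and baseline libraries were far apart, with folds of 59.7, 49.8 and 20.6. The GTPase-activating protein gene RASA3 averaged 58.2 ± 2.66 CPM with EZH2i and 3.35 ± 0.435 CPM at baseline (SD, n = 3, as for all values after ± in CPM), a 17.5-fold difference. MSX2, a homeobox transcription factor of limb and craniofacial development, averaged 76.5 ± 2.91 CPM with EZH2i and 5.89 ± 0.526 CPM at baseline. The 15 largest rises also held UBASH3B (a phosphatase, 27.5-fold), TCHH (trichohyalin, 18.1-fold), the amino acid transporter SLC38A4 (17.9-fold), ANKRD33B (13.6-fold), the latrophilin ADGRL2 (13-fold), the potassium channel KCNN4 (13-fold) and the semaphorin SEMA3C (12.7-fold). MSC-AS1 (15.4-fold) is an antisense gene, and without a stated strand setting its reads and those of its partner cannot be separated.

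The largest falls included steroid enzymes and receptors. GNRHR, the gonadotropin-releasing hormone receptor, stood at 0.247, 0.497 and 0.298 CPM with EZH2i, against 11.2, 12.8 and 10.8 CPM at baseline. HSD3B2 (chr1:119414931-119423035, plus strand), the dehydrogenase needed for active steroids in adrenal and gonad, stood at 4.38, 4.37 and 3.08 CPM with EZH2i, against 70.9, 81.4 and 83.1 CPM at baseline. FGFR4, a fibroblast growth factor receptor, stood at 8.61, 9.07 and 9.4 CPM with EZH2i, against 77.5, 80.1 and 78 CPM at baseline. No EZH2i library reached the range of the baseline libraries for any of them. The folds were 33.4, 19.8 and 8.7, with adjusted p = 2.42e-18 for FGFR4 (edgeR with Benjamini-Hochberg adjustment).

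FATE1 fell to 0.446 ± 0.16 CPM with EZH2i, against 8.8 ± 0.251 CPM at baseline. ACAN, which encodes the proteoglycan aggrecan, fell to 0.819 ± 0.1 CPM with EZH2i, against 9.25 ± 1.51 CPM at baseline. CCL22, a chemokine, fell to 1.84 ± 0.336 CPM with EZH2i, against 17.1 ± 0.61 CPM at baseline. SULT2A1, which sulfates DHEA, fell to 9.28 ± 0.567 CPM with EZH2i, against 74.2 ± 5.26 CPM at baseline. CYP21A2, the 21-hydroxylase, fell to 38 ± 1.02 CPM with EZH2i, against 308 ± 17.9 CPM at baseline, and its pseudogene CYP21A1P to 9.7 ± 0.698 CPM with EZH2i, against 76.2 ± 2.91 CPM at baseline. The pseudogene is a near-identical copy, so reads may be split between them. FAM166B (18.7-fold), SPRR1B (11.2-fold), OLFML2B (10.8-fold), TRPC5OS (7.97-fold), the potassium channel KCNH5 (7.88-fold) and LPA, apolipoprotein(a), (7.78-fold) complete the 15 largest falls. Raw counts of SPRR1B were 4, 3 and 0 with EZH2i, against 20, 24 and 19 at baseline, so its fold rests on few counts. Its log2 change was -4.04 to -2.95 with 1 library left out, and it averaged 13.2 ± 1.97 CPM with FSK.

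**Figure D2:**
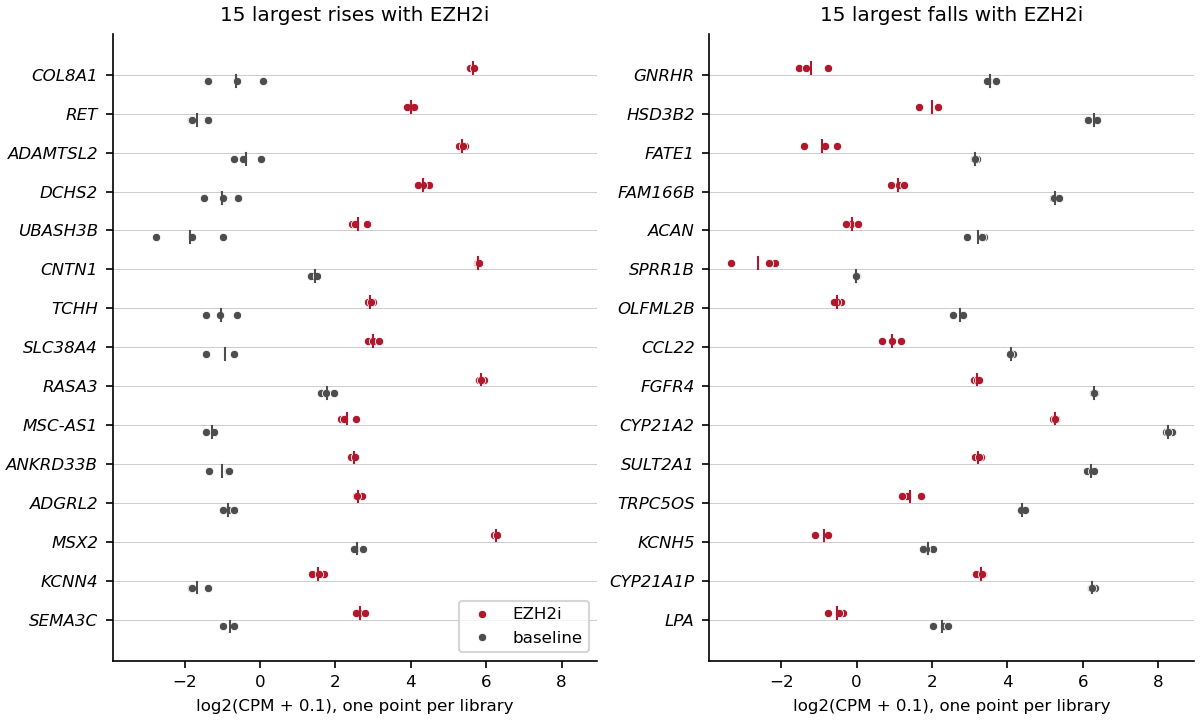
CPM per library on the scale log2(CPM + 0.1) for the 15 largest rises (left) and the 15 largest falls (right), with EZH2i in red above baseline in grey and a vertical tick at the mean. In all 30 genes the EZH2i libraries and the baseline libraries do not overlap, a property that was part of the rule that chose them.

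Promoters of a gene that rose and of a pair that fell are shown because PRC2 is known for CpG-rich promoters and NR5A1 for the steroidogenic ones. Windows run from 250 bases before to 50 bases after the start, from RefSeq on GRCh38.p14. For a gene with several windows, the one with the most CG dinucleotides is shown. Shares of windows given below count all windows, without that choice. CG dinucleotides are in capitals for RET (chr10:43076819-43077118, plus strand) and HSD3B2 (chr1:119414681-119414980, plus strand), and AAGGTCA is in capitals for CYP21A2 (chr6:32038165-32038464, plus strand).
RET: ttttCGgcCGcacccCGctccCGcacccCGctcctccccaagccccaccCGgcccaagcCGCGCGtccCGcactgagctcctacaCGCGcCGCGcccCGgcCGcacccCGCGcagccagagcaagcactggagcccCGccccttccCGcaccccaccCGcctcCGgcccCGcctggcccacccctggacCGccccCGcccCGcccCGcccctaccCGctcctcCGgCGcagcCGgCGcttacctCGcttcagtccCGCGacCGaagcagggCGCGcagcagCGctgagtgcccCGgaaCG
HSD3B2: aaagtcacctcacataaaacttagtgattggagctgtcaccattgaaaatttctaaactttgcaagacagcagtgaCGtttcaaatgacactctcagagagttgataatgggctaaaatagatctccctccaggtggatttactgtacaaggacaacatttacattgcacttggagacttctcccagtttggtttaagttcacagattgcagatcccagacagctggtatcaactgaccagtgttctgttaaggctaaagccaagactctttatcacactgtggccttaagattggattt
CYP21A2: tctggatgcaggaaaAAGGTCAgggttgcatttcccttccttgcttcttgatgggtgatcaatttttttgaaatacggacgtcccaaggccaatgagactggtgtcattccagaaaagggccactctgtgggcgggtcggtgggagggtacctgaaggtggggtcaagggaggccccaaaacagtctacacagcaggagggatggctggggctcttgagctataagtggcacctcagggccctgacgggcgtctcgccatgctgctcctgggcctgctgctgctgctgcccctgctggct
The RET window holds 41 CG dinucleotides, a number that 6.69% of 35116 windows reach, and the HSD3B2 window holds 1, as few as in 11% of windows. AAGGTCA, searched on both strands, lies in 3.92% of all windows. Of 11 steroid synthesis genes with a window, 3 have it in any of their windows (CYP21A2, H6PD and HSD3B1). The former counts windows and the latter genes, which may have several windows, so they cannot be compared directly. A match is a run of letters and not a shown binding site.

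Of 14 genes of the PRC2 complex tested, 3 rose and 4 fell (21.4% and 28.6%, against 29.5% and 28.3% of all genes tested). EZH2 stood at 96.7, 96.1 and 98.7 CPM with EZH2i, against 92.2, 96.6 and 95.5 CPM at baseline, with overlapping libraries, and did not pass (log2 fold change 0.04 ± 0.04 SE, adjusted p = 0.474, edgeR with Benjamini-Hochberg adjustment). JARID2, an accessory subunit that guides PRC2 to chromatin, stood at 158, 153 and 151 CPM with EZH2i, against 77.3, 71.6 and 68.4 CPM at baseline. It was the PRC2 gene that rose by more than 1.5-fold (2.13-fold). EZH1, the paralogous methyltransferase, and LCOR, which has a PRC2-binding isoform, rose by 0.31 and 0.28 on the log2 scale, but LCOR stood at -0.03 after the gene-length correction described further on. The core subunits EED (-0.54) and SUZ12 (-0.24), the histone-binding RBBP7 (-0.62) and the accessory PHF19 (-0.22) fell. RBBP4, AEBP2, PHF1, MTF2, EPOP and EZHIP did not pass, with log2 fold changes of -0.03, -0.01, 0.10, -0.06, -0.03 and 0.58. After the gene-length correction PHF1 passed as higher (0.18) and RBBP4 as lower (-0.17), and 3 PRC2 genes rose and 5 fell.

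PRC1 genes, whose complex binds the H3K27 mark and ubiquitinates H2A, rose in 13 of 23 cases and fell in 3. CBX2, a chromodomain reader, averaged 137 ± 0.164 CPM with EZH2i and 82.2 ± 1.57 CPM at baseline. BMI1 averaged 86.9 ± 2.91 CPM with EZH2i and 64.2 ± 2.02 CPM at baseline. YAF2, RING1 and PCGF5 fell by up to 0.35 on the log2 scale, and the call of RING1 was lost after the gene-length correction (-0.04). Factors that remove or oppose the mark rose in 15 of 18 cases, such as the demethylase KDM6B, at 102, 97.8 and 102 CPM with EZH2i, against 49, 47.6 and 44.1 CPM at baseline, and the methyltransferase KMT2C, at 422 ± 34.2 CPM with EZH2i and 232 ± 31.9 CPM at baseline. SMARCA2, SMARCB1 and NSD2 fell. Genes of this list are long (median length 15636 bases, against 5020 bases for protein-coding genes tested), and their median log2 fold change of 0.35 was 0.16 after the same correction.

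Developmental transcription factors rose widely, as did part of the HOX genes. Of 118 factors listed, 28 were under the filter, and of the 90 tested 57 rose and 9 fell (median log2 fold change 0.56, against 0.02 for all genes tested). Among the 65 with a baseline mean of at least 1 CPM, a choice that does not use the EZH2i libraries, 38 rose and 8 fell, while 30.6% of all 16441 genes at that level rose and 33.4% fell. FOXF1, a forkhead factor of mesenchyme, stood at 16.9, 15.7 and 15.4 CPM with EZH2i, against 1.5, 1.4 and 1.08 CPM at baseline. DLX3, a homeobox factor, stood at 28.7, 27.4 and 28.1 CPM with EZH2i, against 4.56, 2.72 and 3.2 CPM at baseline. RUNX1, a regulator of blood formation, stood at 92.1, 87.6 and 89.1 CPM with EZH2i, against 14.8, 13 and 13.4 CPM at baseline. Libraries of the groups were separate by several fold in each.

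Some factors were nearly absent at baseline. Raw counts of PAX7, a muscle progenitor factor, were 18, 19 and 30 with EZH2i, against 1, 1 and 0 at baseline. Raw counts of ISL1, a motor neuron and heart field factor, were 51, 60 and 61 with EZH2i, against 2, 5 and 0 at baseline. Among the 9 factors that fell were FOXA2 (3.83-fold lower), TBX15 (-0.72 on the log2 scale), GATA6 (-0.59) and ALX4 (-0.56). MSX1, the paralogue of MSX2, fell as well, at 43.9 ± 1.45 CPM with EZH2i and 60.8 ± 0.705 CPM at baseline. GATA4 (0.19) and PITX1 (-0.21) were among the factors that did not pass.

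Of 35 HOX genes tested, 20 rose and 4 fell, and of 29 with at least 1 CPM at baseline 15 rose and 4 fell. The 5 largest rises were in HOXD1, HOXD4, HOXD3, HOXC13 and HOXC10. HOXC13 averaged 24.3 ± 1.53 CPM with EZH2i and 8.18 ± 0.274 CPM at baseline, and HOXD3 3.4 ± 0.619 CPM with EZH2i and 0.962 ± 0.239 CPM at baseline. HOXB8, HOXB4, HOXB7 and HOXA13 fell. The call of HOXB4 was lost without EZH2i replicate 1 (-0.57), EZH2i replicate 3 (-0.55) or baseline replicate 3 (-0.49), and that of HOXA13 without baseline replicate 1 (-0.11). HOX genes overlap one another, so some reads may belong to a neighbour.

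Genes of axon guidance and neural adhesion rose in most tested cases. Of 60 axon guidance genes tested 40 rose and 10 fell, and of 44 with at least 1 CPM at baseline 27 rose and 9 fell. RGMB, a BMP co-receptor and repulsive guidance ligand, stood at 156, 155 and 154 CPM with EZH2i, against 31.9, 32.3 and 31.5 CPM at baseline. SEMA5A averaged 3.3 ± 0.418 CPM with EZH2i and 0.224 ± 0.116 CPM at baseline. PLXNA4, a semaphorin receptor, averaged 2.79 ± 0.333 CPM with EZH2i and 0.53 ± 0.347 CPM at baseline. The families did not move as one, since SEMA4G stood at 10, 10.2 and 9.96 CPM with EZH2i, against 55.3, 48.1 and 46.6 CPM at baseline. SEMA7A (57.8 ± 1.28 CPM with EZH2i and 142 ± 2.8 CPM at baseline), SEMA5B and NTN4 fell as well.

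Neural adhesion genes of the immunoglobulin family rose in 12 of 18 tested cases and 1, DSCAM, fell. Of 14 with at least 1 CPM at baseline 9 rose and 1 fell, against 30.6% and 33.4% of all genes at that level. The call of DSCAM was lost without EZH2i replicate 1 (-0.31), EZH2i replicate 2 (-0.31) or baseline replicate 2 (-0.25). L1CAM averaged 4.9 ± 0.233 CPM with EZH2i and 1.11 ± 0.127 CPM at baseline, and CHL1, its relative, 492 ± 7.21 CPM with EZH2i and 291 ± 11.8 CPM at baseline. NCAM1 did not pass (201 ± 5.62 CPM with EZH2i and 204 ± 4.34 CPM at baseline). Of 25 tested genes of synapses and neuronal differentiation 17 rose and 3 fell, or 11 and 3 of 19 with at least 1 CPM at baseline. Among those that rose were the synaptotagmin SYT1 (14.3 ± 1.13 CPM with EZH2i and 2.72 ± 0.108 CPM at baseline) and the growth-cone protein GAP43 (18.5 ± 1.12 CPM with EZH2i and 6.86 ± 0.591 CPM at baseline). SYP, the vesicle protein synaptophysin, fell to 15.5 ± 0.63 CPM with EZH2i, against 31.1 ± 1.46 CPM at baseline. The summed level of the 4 neuron markers that passed the filter, of 8 listed, was 68.5 to 71 CPM with EZH2i and 48.5 to 50.1 CPM at baseline, with 2 of the 4 higher and 1 lower. RBFOX3 had 10 to 13 raw counts with EZH2i and 0 at baseline, and ELAVL3, ELAVL4 and STMN2 had 0 to 15 with EZH2i and 0 to 2 at baseline. The part of neuron-like cells in these results was not tested.

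Of 6 GDNF family genes tested, 4 rose, RET among them, and 1 fell, while of 4 with at least 1 CPM at baseline 2 rose and 1 fell, and DESeq2 called 2 of the 6 higher. The co-receptor GFRA2 averaged 2.21 ± 0.148 CPM with EZH2i and 1.39 ± 0.272 CPM at baseline, and NRTN, the ligand neurturin, fell to 7.56 ± 1.1 CPM with EZH2i, against 16.9 ± 1.97 CPM at baseline. Of the ligands, ARTN did not pass (0.02 on the log2 scale). Prohormone genes rose in 10 of 15 tested cases and fell in 0, and in 6 of 11 with at least 1 CPM at baseline. VGF, a secreted neuropeptide precursor, stood at 1030, 1010 and 1070 CPM with EZH2i, against 414, 454 and 434 CPM at baseline. The convertase PCSK1 averaged 3.43 ± 0.398 CPM with EZH2i and 1.59 ± 0.207 CPM at baseline, while the chromogranin CHGA (-0.07) did not pass.

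Matrix and surface genes went in both directions. FN1, fibronectin, stood at 801, 747 and 706 CPM with EZH2i, against 114, 106 and 110 CPM at baseline. MMP2, a gelatinase, stood at 81.3, 81.8 and 80.3 CPM with EZH2i, against 21.4, 20.2 and 18.4 CPM at baseline. The collagen IV genes COL4A1 and COL4A2, the network of basement membranes, both fell. COL4A1 averaged 165 ± 3.14 CPM with EZH2i and 319 ± 16.6 CPM at baseline. COL4A2 averaged 423 ± 9.43 CPM with EZH2i and 747 ± 8.17 CPM at baseline, while COL5A1 (39.3 ± 0.247 CPM with EZH2i and 12.9 ± 1.16 CPM at baseline) rose. Of 35 collagen genes tested 18 rose and 10 fell, but of 28 with at least 1 CPM at baseline 12 rose and 10 fell, against 30.6% and 33.4% of all genes at that level. In the list, COL11A1 fell to 46.9 ± 1.94 CPM with EZH2i, against 123 ± 7.06 CPM at baseline.

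Of 6 fibroblast markers tested 1 rose and 3 fell, and their sum was 41.9 to 48.7 CPM with EZH2i and 38.8 to 41.2 CPM at baseline. The part of such cells in the matrix results was not tested.

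Integrins, laminins and fibronectin rose in 18 of 33 cases and fell in 6, and of 26 with at least 1 CPM at baseline 13 rose and 5 fell. ITGA4, an α4 integrin, had raw counts of 70, 59 and 50 with EZH2i, against 1, 1 and 2 at baseline. ITGA9 fell to 231 ± 9.27 CPM with EZH2i, against 528 ± 24.6 CPM at baseline, and ITGA7 to 267 ± 4.77 CPM with EZH2i, against 429 ± 7.2 CPM at baseline. ITGAV (0.00) and LAMB1 (-0.04) did not pass. Among 30 tested matrix proteases and inhibitors 18 rose and 5 fell, and of 19 with at least 1 CPM at baseline 10 rose and 4 fell. The secreted proteases ADAMTS15 and ADAMTS14 rose 10.6-fold and 10.5-fold, and MMP15 fell to 16.9 ± 1.01 CPM with EZH2i, against 52.7 ± 2.39 CPM at baseline. The inhibitors TIMP3 (-0.34) and TIMP2 (-0.20) fell, and TIMP1 (-0.07) did not pass.

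Cadherins and protocadherins rose in 21 of 32 tested cases and fell in 7, and of 22 with at least 1 CPM at baseline 13 rose and 7 fell. PCDH7 averaged 9.63 ± 0.143 CPM with EZH2i and 1.85 ± 0.18 CPM at baseline, and CDH11, a mesenchymal cadherin, fell to 12.2 ± 0.841 CPM with EZH2i, against 24.5 ± 3 CPM at baseline. Of 15 tested adhesion G-protein-coupled receptors 10 rose and 2 fell, and of 10 with at least 1 CPM at baseline 7 rose and 1 fell. The number that fell was 1 under limma voom and without EZH2i replicate 2, EZH2i replicate 3, baseline replicate 2 or baseline replicate 3. ADGRG2 averaged 196 ± 3.22 CPM with EZH2i and 59.1 ± 1.95 CPM at baseline, and ADGRL3, a latrophilin like ADGRL2, fell to 7.58 ± 0.154 CPM with EZH2i, against 19 ± 0.149 CPM at baseline.

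**Figure D3:**
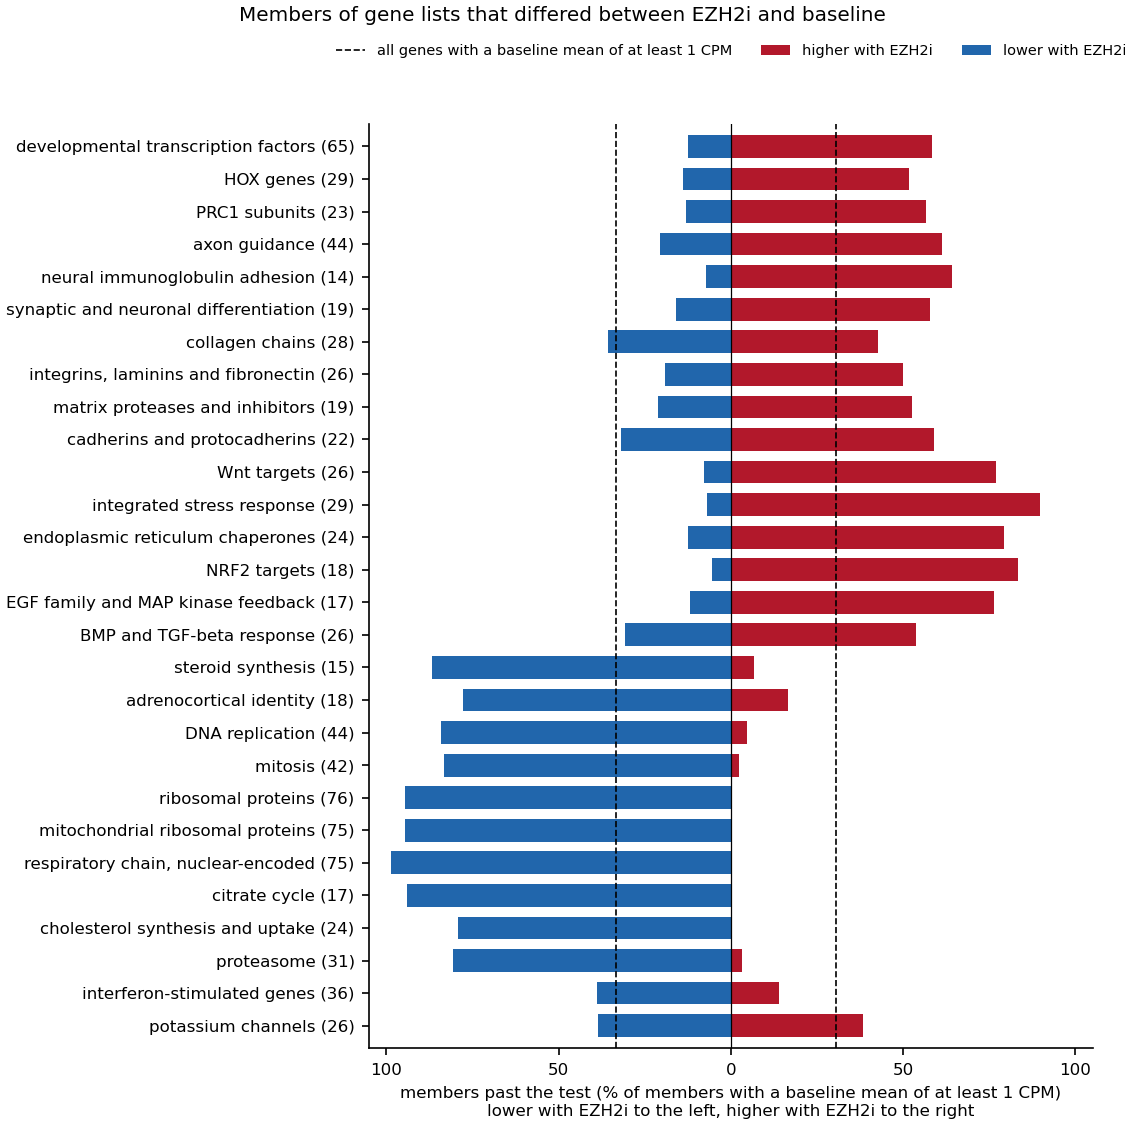
Share of members of each gene list that rose (right, red) or fell (left, blue) with EZH2i in edgeR's test, among members with a baseline mean of at least 1 CPM, whose number is in parentheses. The dashed lines mark all genes at that level, 30.6% higher and 33.4% lower. Steroid synthesis, replication, mitosis, ribosome and respiratory chain lie to the left, and Wnt targets, integrated stress response, endoplasmic reticulum chaperones and NRF2 targets to the right.

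Steroid synthesis genes fell along nearly the whole pathway. Of 17 tested genes 14 fell, 1 rose and 10 fell by more than 1.5-fold (median log2 fold change -1.47). At the entry, STAR, which moves cholesterol into mitochondria, stood at 157, 167 and 161 CPM with EZH2i, against 666, 651 and 665 CPM at baseline. CYP11A1, the side-chain cleavage enzyme, stood at 49.4, 50.3 and 50.8 CPM with EZH2i, against 302, 303 and 323 CPM at baseline. CYP17A1, on the way to cortisol and androgens, stood at 12.8, 13.2 and 13.5 CPM with EZH2i, against 60, 64.9 and 65.3 CPM at baseline. In each the 3 EZH2i libraries lay close together and far under baseline. FDXR, the reductase that feeds electrons to the mitochondrial enzymes, fell to 150 ± 8.57 CPM with EZH2i, against 417 ± 14.5 CPM at baseline. HSD17B1, a 17β-hydroxysteroid dehydrogenase, rose (0.62), AKR1C3 (0.13) did not pass, and CYP11B1 had raw counts of 11, 5 and 10 with EZH2i, against 10, 12 and 9 at baseline. AKR1C3 did pass as higher under upper-quartile scaling (0.15), library size alone (0.15) and a filter of 1 CPM in 3 libraries (0.14). It also passed in a fit of only the 2 groups (0.11), under limma voom (0.13) and after the gene-length correction (0.20), where 2 genes of the list rose.

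Regulators of the cortical cell moved in both directions. NR5A1 stood at 342, 356 and 354 CPM with EZH2i, against 581, 589 and 594 CPM at baseline. NR0B1, a repressor of NR5A1, stood at 19.6, 19 and 22.4 CPM with EZH2i, against 9.07, 10.3 and 11.6 CPM at baseline. MC2R, the ACTH receptor, stood at 1.05, 0.861 and 1.06 CPM with EZH2i, against 3.1, 3.35 and 4.14 CPM at baseline. NR5A1 and MC2R fell and NR0B1 rose. Among 19 tested adrenocortical identity genes 14 fell and 3 rose, the others that rose being CITED2 (0.55) and TBX3 (0.51). INHA, an inhibin subunit, and HSD11B2 fell 6.17-fold and 6.86-fold.

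Wnt targets rose in 20 of 26 cases and fell in 2, with a median log2 fold change of 0.81. NKD2, a feedback inhibitor of Wnt signalling, stood at 12.4, 12.2 and 13 CPM with EZH2i, against 1.55, 0.773 and 0.988 CPM at baseline. CCND1, cyclin D1, stood at 22.4, 22.8 and 22.6 CPM with EZH2i, against 2.28, 2.28 and 2.16 CPM at baseline. ZNRF3, a ligase that removes Wnt receptors, stood at 321, 330 and 316 CPM with EZH2i, against 158, 153 and 142 CPM at baseline. PTCH1, a Hedgehog receptor in the same list, averaged 29.6 ± 1.54 CPM with EZH2i and 9.51 ± 0.981 CPM at baseline. WIF1 (-0.45) and ISM1 (-0.14) fell, and MYC (-0.03), TCF7 (-0.01), DKK1 (0.08) and FGF20 (-0.34) did not pass. The call of WIF1 was lost without EZH2i replicate 1 (-0.38) or baseline replicate 2 (-0.33), and that of ISM1 without EZH2i replicate 1 (-0.15), EZH2i replicate 3 (-0.12), baseline replicate 1 (-0.14), baseline replicate 2 (-0.16) or baseline replicate 3 (-0.14), so that 0 of the list fell without EZH2i replicate 1 or without baseline replicate 2.

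Among β-catenin and the TCF/LEF factors 8 of 14 genes tested rose and 2 fell, or 7 and 2 of 13 with at least 1 CPM at baseline. Among Wnt ligands and secreted modulators 7 of 17 rose and 3 fell (median log2 fold change 0.09), or 7 and 3 of 15 with at least 1 CPM at baseline. Of all genes at that level, 30.6% rose and 33.4% fell. CTNNB1, β-catenin, averaged 971 ± 18.7 CPM with EZH2i and 1280 ± 22.9 CPM at baseline and fell, while LEF1 averaged 198 ± 9.35 CPM with EZH2i and 93.1 ± 2.9 CPM at baseline and rose. AXIN2, a scaffold of the destruction complex and feedback target, averaged 193 ± 3.27 CPM with EZH2i and 103 ± 4.62 CPM at baseline. TCF7L1 averaged 2.01 ± 0.15 CPM with EZH2i and 0.67 ± 0.185 CPM at baseline. Among the ligands, WNT5A averaged 71.3 ± 3.61 CPM with EZH2i and 37.1 ± 0.979 CPM at baseline and WNT11 fell to 63.2 ± 2.69 CPM with EZH2i, against 119 ± 1.11 CPM at baseline. WNT4 (0.09), abundant at baseline, did not pass.

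Most proliferation genes fell. Of 44 genes of DNA replication 37 fell and 2 rose (median log2 fold change -0.32), and of 42 mitotic genes 35 fell and 1 rose (-0.37). TK1, thymidine kinase, stood at 46.4, 50.4 and 49.4 CPM with EZH2i, against 93.3, 106 and 101 CPM at baseline. NUF2, a kinetochore protein, averaged 54.7 ± 1.09 CPM with EZH2i and 92.5 ± 2.81 CPM at baseline. The proliferation marker MKI67 stood at 696, 644 and 590 CPM with EZH2i, against 646, 522 and 515 CPM at baseline. Its libraries overlap, and it did not pass (adjusted p = 0.0616, edgeR with Benjamini-Hochberg adjustment). It passed as higher without EZH2i replicate 3 (0.26) or baseline replicate 1 (0.31), and under DESeq2 (0.19), limma voom (0.20), library size alone (0.22) and no filter on low counts (0.20). CENPF, POLA1 and POLE rose by 0.19, 0.18 and 0.14 on the log2 scale, but each call was lost under some settings. POLE did not pass without EZH2i replicate 1 (0.14), EZH2i replicate 2 (0.14), EZH2i replicate 3 (0.14), baseline replicate 2 (0.12) or baseline replicate 3 (0.12), POLA1 without baseline replicate 2 (0.12), and CENPF without EZH2i replicate 1 (0.14), EZH2i replicate 2 (0.18), baseline replicate 2 (0.14) or baseline replicate 3 (0.13). Of the replication genes 0 rose without baseline replicate 2 or after the gene-length correction.

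Of 20 G1 cyclins, kinases and CDK inhibitors 6 rose and 11 fell (median log2 fold change -0.17). CDK6 stood at 285, 270 and 254 CPM with EZH2i, against 146, 132 and 123 CPM at baseline, and rose with CCND1 and CCND2 (0.49). CDKN2D (-0.83), CCND3 (-0.62), CDK2 (-0.50), CDKN2C (-0.41), CCNE2 (-0.33) and CDK4 (-0.24) were among those that fell. Of the CDK inhibitors, CDKN1C averaged 6.02 ± 0.798 CPM with EZH2i and 3.47 ± 0.479 CPM at baseline and CDKN1A 233 ± 4.24 CPM with EZH2i and 175 ± 0.445 CPM at baseline, both higher, and CDKN2A 213 ± 11.1 CPM with EZH2i and 285 ± 17.4 CPM at baseline, lower. The call of CDKN2A was lost without EZH2i replicate 1 (-0.38) or baseline replicate 3 (-0.37). Among 25 p53 targets 10 rose and 9 fell, with a median log2 fold change of 0.02, the same as over all genes tested.

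Of 15 tested BCL2 family genes, which set the threshold for cell death, 7 rose and 5 fell (46.7% and 33.3%). All 15 had at least 1 CPM at baseline, and of all genes at that level 30.6% rose and 33.4% fell. BMF, a pro-apoptotic BH3-only gene, stood at 154, 170 and 158 CPM with EZH2i, against 29.9, 29.8 and 30.5 CPM at baseline. HRK, BBC3, BIK and PMAIP1, also of the BH3-only class, rose by 1.91, 1.21, 0.84 and 0.76 on the log2 scale, and the survival genes BCL2L1 and MCL1 by 0.14 and 0.11. BAD, another BH3-only gene, fell to 40.9 ± 3.92 CPM with EZH2i, against 73.1 ± 4.32 CPM at baseline. BID (-0.25), the pore-forming BAX (-0.29) and BAK1 (-0.38), and BCL2 (-0.41) fell, and BCL2L11 (0.07) did not pass. The call of BCL2 was lost without EZH2i replicate 3 (-0.35) or baseline replicate 1 (-0.33), that of BCL2L1 without EZH2i replicate 3 (0.10), baseline replicate 2 (0.12) or baseline replicate 3 (0.14) and that of MCL1 without baseline replicate 2 (0.10) or baseline replicate 3 (0.10).

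Most members of the integrated stress response list rose. Of 31 targets of the integrated stress response, 28 rose and 2 fell (median log2 fold change 1.28), and CEBPB did not pass. ADM2, adrenomedullin 2, stood at 8.46, 9 and 8.47 CPM with EZH2i, against 0.821, 1.4 and 0.894 CPM at baseline. GDF15, a stress hormone, stood at 18.3, 18.5 and 17.7 CPM with EZH2i, against 2.74, 2.17 and 2.49 CPM at baseline. SLC7A11, the cystine transporter, stood at 218, 187 and 186 CPM with EZH2i, against 49.1, 41.5 and 42.5 CPM at baseline. PSPH (-0.87) and VLDLR (-0.68) fell. Cytosolic aminoacyl-tRNA synthetases rose in 12 of 20 cases and fell in 4. WARS1 rose, at 145 ± 5.93 CPM with EZH2i and 88.5 ± 1.2 CPM at baseline, and EPRS1 fell, at 592 ± 10.3 CPM with EZH2i and 1430 ± 48.7 CPM at baseline.

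Of 24 endoplasmic reticulum chaperone and folding genes 19 rose and 3 fell, with HYOU1 at 617 ± 12.2 CPM with EZH2i and 303 ± 4.45 CPM at baseline. Of 21 NRF2 targets 18 rose and 1 fell, with HMOX1, heme oxygenase, at 147 ± 2.95 CPM with EZH2i and 30.9 ± 0.653 CPM at baseline and FTH1, ferritin heavy chain, at 1750 ± 18.2 CPM with EZH2i and 809 ± 15.4 CPM at baseline. Heat shock genes went in both directions, 3 higher and 8 lower of 18, and the others did not pass (median log2 fold change -0.09). The shares were 16.7% and 44.4%, against 29.5% and 28.3% of all genes tested. HSPD1, the mitochondrial chaperonin, stood at 312, 319 and 332 CPM with EZH2i, against 1140, 1170 and 1170 CPM at baseline. HSPE1, its co-chaperonin encoded next to it, stood at 49.5, 52.4 and 54.3 CPM with EZH2i, against 159, 178 and 177 CPM at baseline. No other gene of the list fell by more than 1.5-fold.

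Nuclear genes for mitochondria and ribosomes fell nearly throughout. Nuclear-encoded respiratory chain genes fell in 74 of 75 cases (median log2 fold change -0.61), mitochondrial ribosomal proteins in 71 of 75 (-0.53), cytosolic ribosomal proteins in 72 of 76 (-0.54) and citrate cycle genes in 16 of 17 (-0.64), and 0 of them rose. By more than 1.5-fold, 22, 14, 12 and 4 of them fell in the order given, against 4.79% of all genes tested. ATP5F1A, a subunit of ATP synthase, stood at 212, 230 and 227 CPM with EZH2i, against 462, 507 and 521 CPM at baseline. MRPS28 averaged 6.38 ± 0.116 CPM with EZH2i and 19.1 ± 1.49 CPM at baseline. FH, fumarate hydratase, averaged 81.9 ± 3.14 CPM with EZH2i and 185 ± 8.22 CPM at baseline. Among the genes that did not pass were NDUFA1, MRPS5, MRPS10, MRPS25, MRPS30, RPL37, RPS2, RPS12 and RPS27, though NDUFA1 did pass without baseline replicate 1 (-0.42). After correction for gene length the medians of the first 3 lists were -0.49, -0.37 and -0.42. With that correction 1 cytosolic ribosomal protein gene and 1 citrate cycle gene rose.

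The 13 mRNAs encoded in the mitochondrial genome did not fall. MT-ND4 stood at 5070, 4620 and 6240 CPM with EZH2i, against 4500, 3490 and 3230 CPM at baseline, and its call as higher was lost without EZH2i replicate 1 (0.54), EZH2i replicate 3 (0.37), baseline replicate 2 (0.46) or baseline replicate 3 (0.41). Of the 13, 5 rose and 0 fell, but the number that rose lay between 1 and 13 across other settings, and it was 2 without EZH2i replicate 3, 2 without baseline replicate 2, 2 without baseline replicate 3 and 8 without baseline replicate 1. Mitochondrial genes took 3.61%, 3.27% and 4.4% of counts with EZH2i, against 3.22%, 2.64% and 2.37% at baseline.

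Of 25 tested genes for making or importing cholesterol, 19 fell and 1 rose. The gene that rose was NPC1L1, at 0.512 ± 0.209 CPM with EZH2i and 0.215 ± 0.0929 CPM at baseline, a call lost without EZH2i replicate 1 (0.88), baseline replicate 2 (1.14) or baseline replicate 3 (1.06). SREBF1, which drives fatty acid synthesis, averaged 43.2 ± 0.439 CPM with EZH2i and 88.9 ± 3.83 CPM at baseline. Of 9 LXR target and cholesterol efflux genes tested 1 rose and 5 fell. Heme synthesis fell in 6 of 8 genes, with UROD at 52.6 ± 4 CPM with EZH2i and 116 ± 6.86 CPM at baseline, and the proteasome in 25 of 31, with PSMD3 rising (0.14). In glycolysis 5 genes rose and 9 fell of 20 (25% and 45%, against 29.5% and 28.3% of all genes tested). ENO2, the neuronal enolase, stood at 58, 58.2 and 56.1 CPM with EZH2i, against 11.7, 11.8 and 11 CPM at baseline, and ENO1 did not pass. HK2 rose (2.42-fold) and TPI1 fell (-0.77 on the log2 scale). Of 34 lysosome and autophagy genes 16 rose and 11 fell (47.1% and 32.4%), and 10 were higher without baseline replicate 3. All 34 had at least 1 CPM at baseline, where 30.6% of all genes rose and 33.4% fell.

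Signalling feedback genes rose. Among 20 tested genes of the EGF family and MAP kinase feedback 15 rose and 2 fell, or 13 and 2 of 17 with at least 1 CPM at baseline. Without baseline replicate 1, 1 gene fell. DUSP4, a phosphatase of ERK, stood at 66.8, 66 and 62.4 CPM with EZH2i, against 17.9, 17.7 and 17.1 CPM at baseline. SPRY4, an inhibitor of receptor tyrosine kinase signalling, stood at 54.3, 55.1 and 57.7 CPM with EZH2i, against 16.1, 18.2 and 16.1 CPM at baseline. DUSP6, another ERK phosphatase, stood at 36.9, 41.2 and 43.6 CPM with EZH2i, against 57.2, 57.7 and 59.1 CPM at baseline, and so fell. Of 12 tested AP-1 and EGR genes 7 rose and 0 fell, or 5 and 0 of 9 with at least 1 CPM at baseline. FOSL1 averaged 5.79 ± 0.596 CPM with EZH2i and 0.952 ± 0.168 CPM at baseline and FOSL2 234 ± 2.29 CPM with EZH2i and 81.3 ± 4.64 CPM at baseline, while FOS (0.33) and EGR1 (0.59) did not pass. EGR1 passed without EZH2i replicate 1 (0.72) or EZH2i replicate 2 (0.70).

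In the BMP and TGF-β list 16 of 28 tested genes rose and 8 fell, or 14 and 8 of 26 with at least 1 CPM at baseline. ID3, a direct BMP target, averaged 171 ± 9.37 CPM with EZH2i and 81 ± 3.93 CPM at baseline. NOG, the BMP antagonist noggin, averaged 6.34 ± 0.686 CPM with EZH2i and 2.73 ± 0.191 CPM at baseline. INHBA, the activin A subunit, averaged 10.2 ± 0.799 CPM with EZH2i and 4.11 ± 0.762 CPM at baseline.

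In the IGF axis 7 of 16 genes tested rose and 4 fell (43.8% and 25%, against 29.5% and 28.3% of all genes tested). After the gene-length correction 6 rose and 6 fell. IGF2, abundant in this line, stood at 4170, 4140 and 4070 CPM with EZH2i, against 3940, 3840 and 3530 CPM at baseline, and did not pass (log2 fold change 0.13 ± 0.10 SE). IGF2BP2 averaged 9.71 ± 0.252 CPM with EZH2i and 2.74 ± 0.617 CPM at baseline and rose. IGFBP7 averaged 231 ± 7.15 CPM with EZH2i and 491 ± 36.9 CPM at baseline and fell. Among imprinted genes 5 of 21 tested rose and 8 fell. GRB10, an adaptor that restrains growth factor signalling, stood at 143, 139 and 124 CPM with EZH2i, against 37.7, 38.7 and 37.8 CPM at baseline. DLK1 fell to 2450 ± 71.7 CPM with EZH2i, against 4580 ± 113 CPM at baseline, and PEG10 to 535 ± 12.3 CPM with EZH2i, against 1010 ± 46.9 CPM at baseline. MEG3, expressed from the DLK1 locus, did not pass (0.11).

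Interferon-stimulated genes leaned lower, with 5 rising and 14 falling of 39 tested, against 29.5% and 28.3% of all genes. IFIT1 averaged 14.8 ± 0.614 CPM with EZH2i and 34.6 ± 2.35 CPM at baseline, and BST2, which tethers virions, 95.1 ± 3.76 CPM with EZH2i and 199 ± 12.9 CPM at baseline. MHC class I presentation genes rose in 8 of 15 cases and fell in 4 (53.3% and 26.7%, against the same shares of all genes). HLA-B averaged 293 ± 10.1 CPM with EZH2i and 210 ± 3.56 CPM at baseline. The class I genes share sequence, so reads may be split among them. Only 2 genes of this list fell without EZH2i replicate 1, EZH2i replicate 2, baseline replicate 2 or baseline replicate 3.

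Potassium channel genes rose in 21 of 42 tested cases and fell in 10, but with at least 1 CPM at baseline 10 of 26 rose and 10 fell. Among all genes at that level 30.6% rose and 33.4% fell. KCNA1 averaged 3.86 ± 0.323 CPM with EZH2i and 0.291 ± 0.156 CPM at baseline. KCNA6 had raw counts of 68, 77 and 66 with EZH2i, against 2, 0 and 1 at baseline. KCND3 fell to 8.34 ± 0.636 CPM with EZH2i, against 22.7 ± 0.782 CPM at baseline, and KCNK3 and KCNJ5, background and inward rectifier channels of the adrenal cortex, fell by 0.52 and 0.63 on the log2 scale. Of 14 calcium and sodium channel genes tested 6 rose and 2 fell, but 1 fell without EZH2i replicate 2, EZH2i replicate 3, baseline replicate 1 or baseline replicate 2, under DESeq2 or with no filter on low counts, and 4 fell after the gene-length correction. CACNA1H stood at 174, 175 and 180 CPM with EZH2i, against 69.4, 65.3 and 65.2 CPM at baseline. CACNA1C averaged 134 ± 3.66 CPM with EZH2i and 61.7 ± 5.96 CPM at baseline, and CACNA1D fell to 26.9 ± 2.4 CPM with EZH2i, against 63.9 ± 4.87 CPM at baseline.

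Germline and testis genes, often silenced by DNA methylation, mostly fell or were under the filter. Of 29 listed 17 were under the filter, and of 12 tested 1 (MAGEC1) rose and 9 fell. The call of MAGEC1 was lost without EZH2i replicate 1 (0.19), EZH2i replicate 2 (0.17) or baseline replicate 2 (0.19). MAGEA3 averaged 287 ± 8.91 CPM with EZH2i and 366 ± 3.4 CPM at baseline.

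Fold changes followed gene length. In 10 bins of protein-coding genes by length, the median log2 fold change was -0.26 in the shortest (median length 1434 bases) and 0.24 in the longest (13187 bases). Rises over 1.5-fold made up 3.79% of the shortest bin and 13.9% of the longest, and falls 12.7% and 2.23%. The medians of the shortest and longest bins were -0.25 and 0.19 for CBPi over baseline and -0.03 and -0.01 for FSK over baseline, comparisons that share the baseline libraries. After correction of every library for this trend, 5 neural adhesion genes fell, against 1 without it, and 11 genes of integrins, laminins and fibronectin, against 6. Mitochondrial genes took 3.27% to 4.4% of counts with EZH2i and 2.37% to 3.22% at baseline. The part of RNA quality in the trend was not tested.

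**Figure D4:**
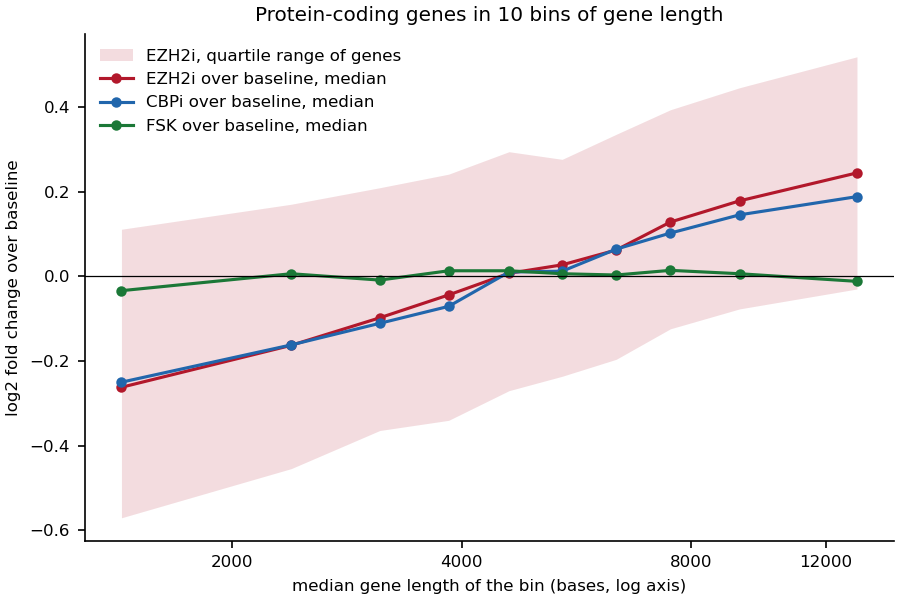
Median log2 fold change over baseline (y axis) of protein-coding genes in 10 bins of gene length (x axis, log scale, bases), for EZH2i, CBPi and FSK, with the range between the quartiles of genes for EZH2i shaded. The EZH2i line climbs to 0.24 in the longest bin, against -0.26 in the shortest, the CBPi line has a like slope, and the FSK line is nearly flat.

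Set directly against the other inhibitor, EZH2i differed from CBPi in 8930 genes (43.9%), 4408 higher (21.7%) and 4522 lower (22.2%), and by more than 1.5-fold 3.55% were higher and 1.33% lower. The doses differ, 62 µM for EZH2i and 26 µM for CBPi, and the time of 96 h is the same. COL8A1 had 49.8 ± 2.06 CPM with EZH2i and 0.473 ± 0.1 CPM with CBPi (log2 difference 6.74 ± 0.17 SE). RET had 15.9 ± 0.984 CPM with EZH2i and 0.251 ± 0.117 CPM with CBPi (5.99 ± 0.18 SE). CNTN1 had 54.8 ± 1.02 CPM with EZH2i and 1.02 ± 0.263 CPM with CBPi (5.74 ± 0.10 SE, adjusted p = 1.38e-18, edgeR with Benjamini-Hochberg adjustment). SLC38A4 and ANKRD33B completed the 5 largest in this direction. Developmental transcription factors were higher with EZH2i than with CBPi in 40 of 90 tested cases and lower in 9, and axon guidance genes higher in 35 of 60 and lower in 9.

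In the opposite direction, INHBE, an activin subunit, had 4.91 ± 0.277 CPM with EZH2i and 21.4 ± 1.28 CPM with CBPi (-2.12 ± 0.10 SE). DMGDH had 1.84 ± 0.0833 CPM with EZH2i and 11 ± 0.565 CPM with CBPi, INHBA 10.2 ± 0.799 CPM with EZH2i and 39.5 ± 1.37 CPM with CBPi, and PAPPA2 3.11 ± 0.469 CPM with EZH2i and 9.73 ± 0.427 CPM with CBPi. SLC44A4 had 2.22 ± 0.18 CPM with EZH2i, 7.46 ± 0.636 CPM with CBPi and 7.26 ± 0.215 CPM at baseline. Integrated stress response genes were lower with EZH2i than with CBPi in 29 of 31 cases and higher in 0, and ribosomal proteins lower in 73 of 76. Mitotic genes were higher with EZH2i than with CBPi in 39 of 42 cases. Of 17 steroid synthesis genes 6 were higher and 3 lower, and HSD3B2 had 3.94 ± 0.75 CPM with EZH2i and 3.54 ± 0.216 CPM with CBPi without passing (log2 difference 0.15 ± 0.14 SE).

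Against FSK, whose exposure of 48 h was shorter, EZH2i differed in 12541 genes (61.6%), 30.3% higher and 31.3% lower, and by more than 1.5-fold 10.7% were higher and 7.81% lower. Steroid synthesis genes were lower with EZH2i in 12 of 17 cases and higher in 1, with CYP21A2 at 38 ± 1.02 CPM with EZH2i and 1270 ± 21.4 CPM with FSK. Wnt targets were higher in 20 of 26 and lower in 5. SULT2A1 had 9.28 ± 0.567 CPM with EZH2i and 8.08 ± 0.796 CPM with FSK, against 74.2 ± 5.26 CPM at baseline.

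**Figure D5:**
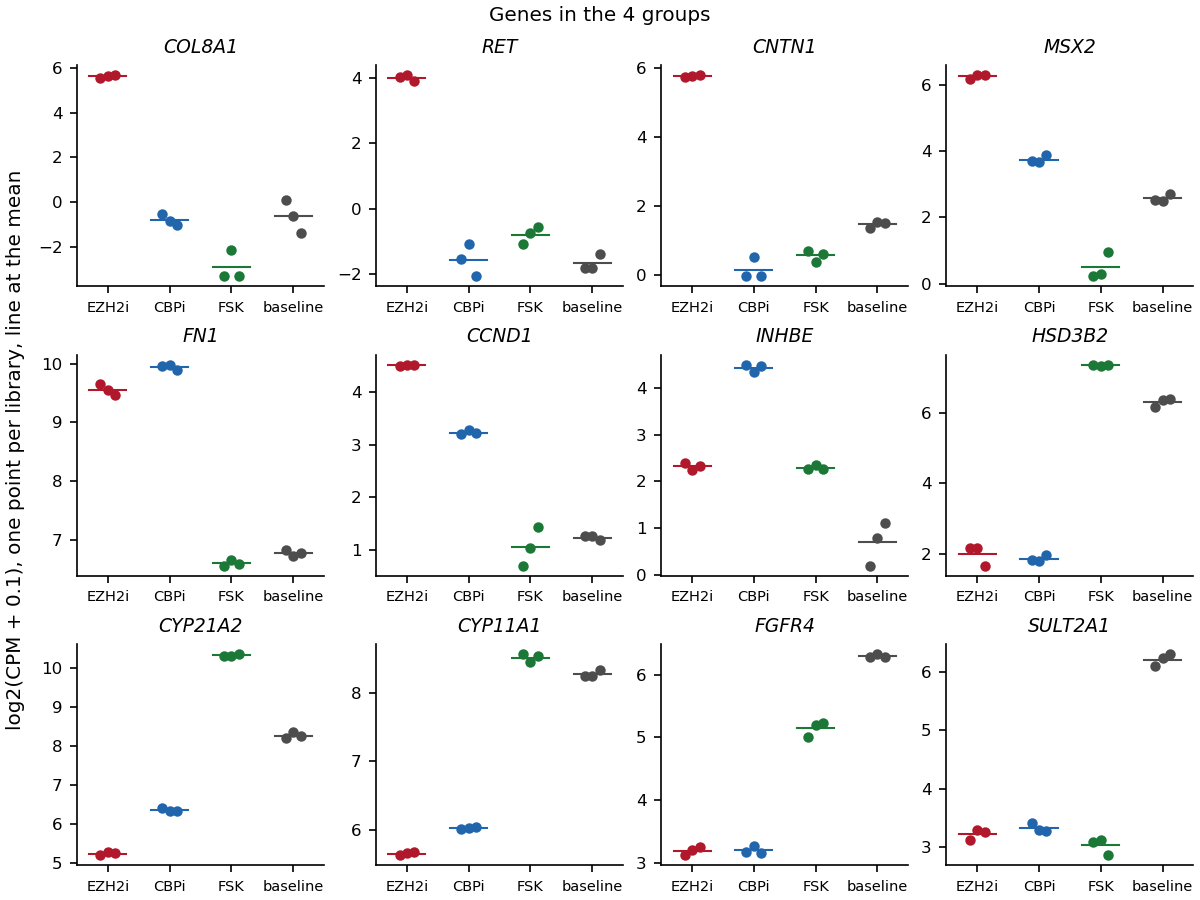
Levels of 12 genes on the scale log2(CPM + 0.1) in EZH2i, CBPi, FSK and baseline libraries, with 1 point per library and a line at the mean. COL8A1, RET and CNTN1 are high with EZH2i and low in the other groups, while HSD3B2 is low with EZH2i and with CBPi and high with FSK.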

How the data were processed

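The 12 libraries (4 groups of 3) came from poly(A) RNA of a single line. STAR, featureCounts and hg38 are named in the submitters' processing notes, without versions, and strand or multimapping settings are not stated there. Values are expected counts (partly fractional) per gene, summed from aligned reads and deposited by the authors, for 60617 genes. Of the values above 0, 65.6% were whole to within 1e-06. A deposited gene length column, another unit in bases, was used for the length trend. All 12 count columns were matched by name, with 0 left over. Symbols matched 60261 genes and GENCODE 29 positions 58542.

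Counts were rounded. R 4.3.3 with edgeR 4.0.16 fitted 1 robust quasi-likelihood model to all 12 libraries with TMM scaling and filterByExpr over 4 groups. The Benjamini-Hochberg method was applied over 20360 genes (threshold 0.05), and glmTreat tested against 1.5-fold. SE is the size of a log2 fold change over the square root of F. P-values measure the spread between these samples of 1 line, which may be technical. The biological coefficient of variation was 4.98%. Library totals were 20.6 to 31.5 megacounts. Replicate numbers follow accession order and pair nothing.

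Named genes are all PRC2 genes, the 15 largest changes in each direction past the 1.5-fold test (mean log2 CPM of at least 1, no overlap of libraries), the largest and opposing members of each list, the 5 largest in each direction against CBPi, and a fixed set of steroidogenic, Wnt and cell cycle genes. The members and lists were chosen with earlier results of these data known. Some genes named beyond that rule were chosen after their values were seen. Alternatives were DESeq2 1.42.0, limma 3.58.1 (voom), other scalings, filters and a 2-group fit, each library left out, a 2-fold threshold and, chosen after seeing the data, a gene-length correction. The fit was tried on simulated data with 200 changed genes and 1 spread shared by all genes. Far more genes differed in the real data, so that trial does not cover their setting. Reads were not realigned, so splicing and strand were not examined. A comparison of promoter CG content over gene sets was not made, because 78.3% of protein-coding genes had a window, under the 80% required.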

Additional observations from a re-analysis of the deposited data

How the results depend on the processing

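The number of genes that differed between EZH2i and baseline lay between 10546 and 12287 over 15 alternative settings, and between 10596 and 11341 with 1 library left out, against 11778 as reported. The number past 1.5-fold was 2027 to 2355 with 1 library left out, and a 2-fold threshold gave 799. For EZH2i against CBPi the number was 7740 to 8579, and against FSK 11634 to 12038, with 1 library left out. Higher genes made up 48.9% to 54.9% of calls. No paired analysis was possible because the labels carry no replicate numbers. Under the gene-length correction, chosen after seeing the data, the falls among HOX genes numbered 2, and cholesterol genes that rose 3. Of the genes named, those near 0 changed sign under some settings, and the cause was not tested. On the log2 scale, AEBP2 gave 0.008 (upper-quartile scaling), 0.014 (library size only), 0.001 (at least 1 CPM in 3 libraries), -0.032 to 0.024 with 1 library left out. ARTN gave -0.092 to 0.079 with 1 library left out. CEBPB gave 0.109 (gene-length correction). CHGA gave 0.052 (gene-length correction), -0.162 to 0.002 with 1 library left out. ENO1 gave 0.014 (upper-quartile scaling), 0.020 (library size only), 0.007 (at least 1 CPM in 3 libraries), -0.041 to 0.026 with 1 library left out. EPOP gave 0.044 (gene-length correction). ITGAV gave -0.002 (RLE scaling), -0.015 (only the 2 groups compared), -0.007 (DESeq2), -0.106 (gene-length correction), -0.019 to 0.019 with 1 library left out. LCOR gave -0.025 (gene-length correction). MEG3 gave -0.174 (gene-length correction). MRPS10 gave 0.084 (gene-length correction). MRPS30 gave -0.059 to 0.019 with 1 library left out. NCAM1 gave 0.002 (library size only), -0.040 to 0.000 with 1 library left out. POLE gave -0.091 (gene-length correction). RPS12 gave 0.222 (gene-length correction). RPS2 gave 0.046 (gene-length correction). TCF7 gave 0.010 (upper-quartile scaling), 0.016 (library size only), 0.003 (at least 1 CPM in 3 libraries), -0.034 to 0.022 with 1 library left out. TIMP1 gave 0.147 (gene-length correction). Of these, LCOR and POLE had passed as higher.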

Other observations

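Neighbouring genes of a cluster sometimes moved together. These families were chosen after their values were seen. All 5 genes of the glutathione transferase alpha cluster fell by more than 1.5-fold (median log2 fold change -1.71), against 4.79% of all genes tested. GSTA1 averaged 22 ± 0.72 CPM with EZH2i and 78 ± 2.6 CPM at baseline, GSTA3 5.43 ± 0.463 CPM with EZH2i and 28.3 ± 1.02 CPM at baseline and GSTA4 20.5 ± 1.16 CPM with EZH2i and 34.3 ± 1.42 CPM at baseline. The genes are close copies, so reads may be split among them.

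Clustered protocadherins label single neurons, and their counts stand beside the 29.5% of all genes tested that rose. In the alpha cluster 11 of 15 genes tested rose and 0 fell, in the beta cluster 12 of 16 rose and 1 fell, and in the gamma cluster 7 of 22 rose and 0 fell, a share that rose near that of all genes. Genes within a cluster are alike in sequence, so reads of neighbours cannot be assigned with certainty.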
